A study of Mus musculus with 6 samples.

Results

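Complex I genes were taken as the genes whose symbol starts with Nduf, and 44 of the 18193 genes named by the array were of this kind. Each was read from the probe set (the group of short probes that measures 1 transcript) that named this gene alone and had the highest mean signal over the 6 arrays. BAT, the fat depot that oxidises fuel to give off heat, from 3 KRAP-deficient mice (KO) was compared with that from 3 wild-type mice (WT), with 1 Affymetrix Mouse Genome 430 2.0 array for each mouse. KO mice carried a targeted germline deletion of part of the KRAP gene, in every tissue, and WT mice were their littermates. KRAP is an actin-interacting protein. Both genotypes had the C57BL6/J background, were 32 weeks old and ate normal chow, and each KO mouse was set against the WT mouse of the same number as a littermate pair. A signal is expressed relative to the array median, which is 1 on this scale, and a log2 difference is KO minus WT.

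Complex I, or NADH dehydrogenase, is the entry point of the respiratory chain. It takes electrons from NADH at the tip of its matrix arm, passes them along iron-sulfur clusters to ubiquinone, and uses the energy to pump protons through its membrane arm. The core subunits that carry out the reaction are surrounded by accessory subunits, and a set of assembly factors puts the modules together without staying in the finished enzyme. In BAT the proton gradient built by complex I and the other proton pumps is discharged through uncoupling protein 1, which turns the energy into heat.

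The genotype check and the composition of the samples were examined across the series. The probe set for KRAP, now called Itprid2, read between 35.1 and 47.0 in KO and between 42.2 and 56.6 in WT (limma adjusted p = 0.720), and as its position relative to the deleted part was not stated, it did not check the labels. Among the brown adipocyte markers, Ucp1 read between 343 and 624 in KO and between 345 and 655 in WT. Pair 1 stood apart in Ppargc1a, which read 111 in KO 1 and 72.7 in WT 1 and between 9.88 and 12.2 on the other arrays, and in Dio2, which read 101 in KO 1 and 44.3 in WT 1 and between 4.05 and 15.3 on the others. The 5 white adipocyte markers summed to 65.3 to 102 in KO and 77.9 to 105 in WT, and of the 4 tested, 3 (Lep, Nnat and Npr3) were lower and Retn was higher in KO in 3 of 3 pairs. The 10 skeletal muscle markers summed to 48.5, 838 and 28.2 in KO 1 to 3, against 113, 71.7 and 351 in WT 1 to 3, so KO 2 and WT 3 held the most muscle transcripts. The 4 hepatocyte markers summed to 60.9 in KO 3 and to at most 4.43 on the other arrays, and the 4 T and B cell markers were below the array median on average. WT 2 stood apart in its control probes, with an actin 3'/5' signal ratio of 3.80 against 1.91 to 2.58 on the other arrays. The part of these differences in the results below was not tested, except where a value without the arrays is given. In whole tissue, fewer cells of a type and less RNA per cell cannot be told apart.

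Complex I transcripts did not differ between KO and WT BAT past the threshold in any of 43 tested genes, and the subunits had log2 differences between -0.28 and 0.19. A gene was tested where its mean signal exceeded the array median, which left out Ndufb4. Of 22356 probe sets on the array that were tested, 0 passed (0.0%) with limma and Benjamini-Hochberg adjustment at 0.05, and without pair 1 255 passed, 0 of them among the 43. The smallest adjusted p among the complex I genes was 0.659. The count with an unadjusted p under 0.05 was 0 of 43 genes, while 8.55% of all tested probe sets had one, 5.14% lower and 3.41% higher in KO. This count depends on the probe set read for Ndufaf4. Its brightest, with a mean signal of 23.9, had a limma unadjusted p of 0.104, and its second, at 23.8, had 0.0243. No complex I gene differed 1.5-fold or more in the same direction in all 3 pairs, against 1.37% of all tested probe sets (0.819% lower and 0.555% higher in KO).

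The median log2 difference was -0.01 over 33 subunits, -0.25 over 8 assembly factors and -0.05 over all tested probe sets. The subunit median became 0.05 on the signals as deposited and 0.02 after quantile normalization, so it had no stable sign, whereas the assembly factor median was -0.19 and -0.17 under these scalings. The median over all tested probe sets moved as well, to 0.01 on the signals as deposited and 0.001 after quantile normalization. On the scaled signals 21 subunits were lower and 12 higher in KO. The split was 12 lower and 21 higher on the signals as deposited, and 14 lower and 19 higher after quantile normalization.

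The intervals show which sizes of difference the comparison could have missed. The 95% confidence interval of the difference lay within 1.5-fold either way for 23 of 33 subunits and 26 of 43 genes, against 21.7% of all tested probe sets and 35.1% of those with a mean signal above 100. With any 1 pair left out this count was 0, because the intervals widen with 4 arrays. The half-width of the interval was between 0.45 and 0.58 on the log2 scale for the subunits. With 3 mice for each genotype, a measured difference smaller than this could not reach an unadjusted p of 0.05. The adjusted test asked for larger ones, as the smallest limma adjusted p over all tested probe sets was 0.117.

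**Figure D1:**
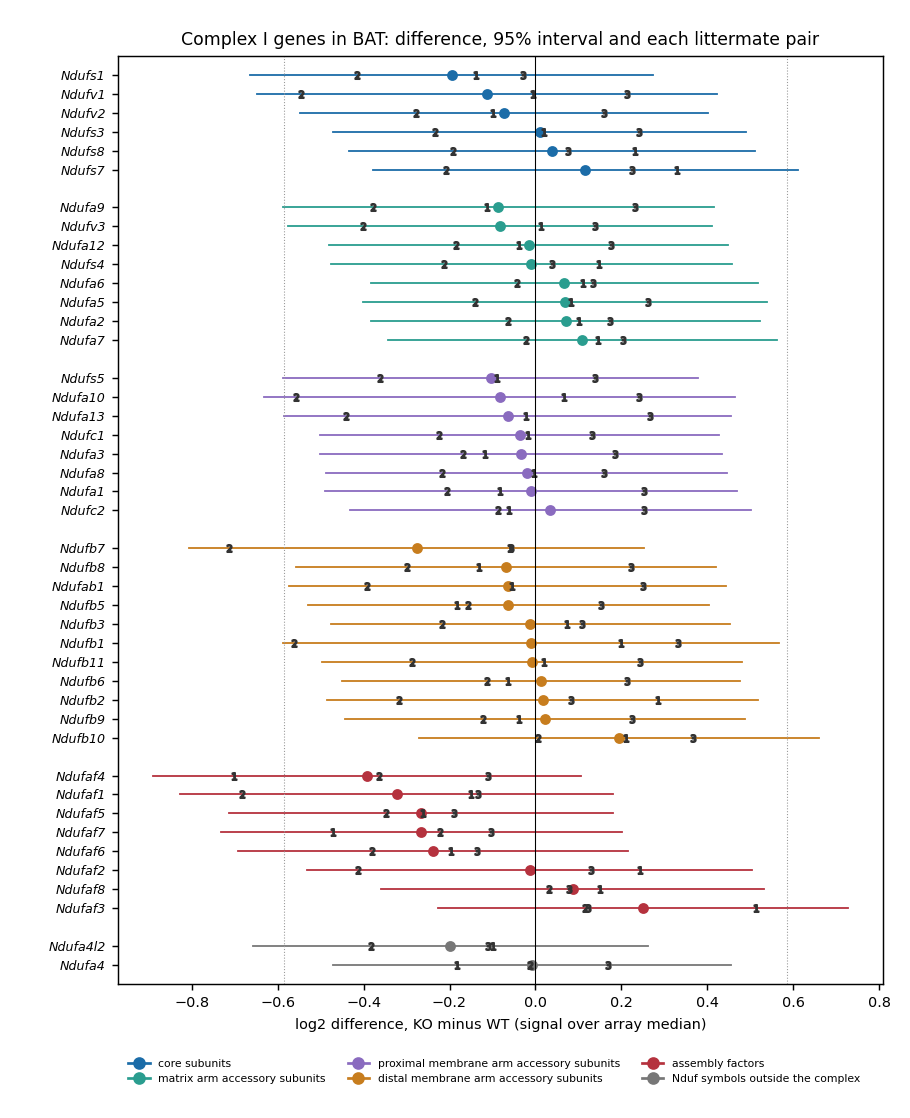
Log2 difference between KO and WT (x axis, KO minus WT, signal over array median) for the 43 tested genes in 6 role groups, with the fitted value as a dot, its 95% confidence interval as a line and the 3 littermate pairs as the digits 1 to 3. Dotted lines mark 1.5-fold. All intervals include 0. In the subunit groups pair 2 lies mostly to the left of 0 and pair 3 mostly to the right. Of 8 assembly factors, 5 have all 3 pairs to the left and 2 have all 3 to the right.

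Core subunits of the matrix arm carry the flavin and the iron-sulfur clusters of the electron path. Ndufs1, the iron-sulfur protein that receives electrons behind the flavin site, read 238, 228 and 255 in KO 1 to 3, against 261, 305 and 260.4 in WT 1 to 3. All KO values lay below all WT values, and the log2 difference was -0.19 (95% confidence interval -0.66 to 0.27, limma adjusted p = 0.830), or -0.08 without pair 2. It was lower in KO in 3 of 3 pairs under each of the 3 scalings. Non-overlap of this kind occurred in 5 of 43 genes and in 11.7% of all tested probe sets.

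Ndufv1, which binds NADH and the flavin, averaged 268 ± 35.7 in KO and 289 ± 40.4 in WT (SD, n = 3 each), with the groups overlapping and the pairs pointing both ways. Ndufs7, which holds the last cluster before ubiquinone, had the highest difference of the core group at 0.12. It averaged 323 ± 38.6 in KO and 298 ± 22.5 in WT (SD, n = 3 each). A second probe set of Ndufs7 gave 0.21 (limma adjusted p = 0.805) and was higher in KO in 3 of 3 pairs with overlapping groups. Ndufs8, an iron-sulfur protein of the same module, read 517 in KO 1 and between 337 and 379 in the other KO mice, against 360.2 to 439.8 in WT. Its log2 difference was 0.04, and its 6 tested probe sets ranged from -0.08 to 0.32, the highest on one with a mean signal of 3.01. Ndufv2, the iron-sulfur partner of Ndufv1, had a difference of -0.07, with 3 probe sets between -0.09 and 0.09. The 6 measured core subunits had a median log2 difference of -0.03 and overlapped between the genotypes except for Ndufs1.

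Accessory subunits of the matrix arm, 8 tested, had a median log2 difference of 0.03 and a range of -0.09 to 0.11. Ndufa9, which sits near the ubiquinone site, read 273, 216 and 277 in KO 1 to 3, against 295, 280.2 and 236 in WT 1 to 3. Its log2 difference of -0.09 was the lowest of the group. Ndufv3, a small subunit at the tip of the arm, had -0.08. Ndufa7 was at the other end with 0.11 (95% confidence interval -0.34 to 0.56) and averaged 329.6 ± 20.3 in KO and 305 ± 9.81 in WT (SD, n = 3 each). Ndufa2, next in order, had 0.07. These values overlapped between the genotypes in all 8 genes, and 7 of the 8 intervals lay within 1.5-fold.

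Ndufa12, which joins the arm late in assembly, illustrates how the choice of probe set matters. Its brightest probe set read 486, 419.9 and 470.3 in KO 1 to 3, against 498, 477 and 417 in WT 1 to 3, a log2 difference of -0.02. A dim probe set of the same gene, with signals of 1.54 to 2.02 in KO and 0.511 to 1.81 in WT, gave 0.79 (limma adjusted p = 0.547). Another bright probe set of Ndufa12 gave -0.04. One more bright one gave 0.13 (limma adjusted p = 0.895) and was higher in KO in 3 of 3 pairs with overlapping groups. Ndufs4, an accessory subunit whose loss causes Leigh syndrome in people, read 113 to 128 in KO and 114 to 132 in WT on its brightest probe set, a difference of -0.01. A dim probe set of Ndufs4 read 3.78, 3.30 and 4.10 in KO 1 to 3, against 8.94, 6.86 and 4.09 in WT 1 to 3, a difference of -0.76 (limma adjusted p = 0.545).

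Accessory subunits at the proximal end of the membrane arm, next to the matrix arm, had a median of -0.04 over 8 tested genes, the narrowest range of all groups at -0.10 to 0.03. Ndufs5 was lowest and averaged 268 ± 20.4 in KO and 289 ± 28.7 in WT (SD, n = 3 each). Ndufa10, a protein related to nucleoside kinases, read 332, 206 and 306 in KO 1 to 3, against 317, 303 and 258 in WT 1 to 3. KO 2 alone stood low, and the fitted difference was -0.08. The highest values were those of Ndufc2 at 0.03 and Ndufa1 at -0.01. The 4 tested probe sets of Ndufc2 ranged from 0.03 to 0.58, the last of them dim. A bright one, with a mean signal of 238, gave 0.18 (limma adjusted p = 0.844) and was higher in KO in 3 of 3 pairs with no overlap. Ndufa3 had -0.03 on its brightest probe set and -0.02 on another bright one. It reached 0.18 on a dim one with a mean signal of 1.95.

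Accessory subunits at the distal end of the membrane arm had a median of -0.01 over 11 tested genes. Ndufb7 was lowest of all subunits and read 188, 130.2 and 146 in KO 1 to 3, against 196, 213 and 152 in WT 1 to 3. The log2 difference was -0.28 (95% confidence interval -0.81 to 0.25, limma adjusted p = 0.773), and it was -0.06 without pair 2. A second probe set gave -0.29, with -0.08, -0.48 and -0.33 in pairs 1 to 3. KO was lower in 3 of 3 pairs with the array median and quantile scalings, but not on the signals as deposited. Ndufb8, often used as a marker of assembled complex I on blots, had -0.07 on its brightest probe set, with a mean signal of 425. The other, a dim one at 6.86, gave 0.20.

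Ndufb10 was the highest of all subunits and read 246, 234 and 274 in KO 1 to 3, against 213, 233 and 213 in WT 1 to 3. The groups did not overlap, although KO 2 and WT 2 nearly met, and the log2 difference was 0.19 (95% confidence interval -0.27 to 0.66, limma adjusted p = 0.830), or 0.11 without pair 3. It was higher in KO in 3 of 3 pairs under each of the 3 scalings. Ndufb9 came next in the distal group with 0.02, and its highest signal reached 65.2% of the maximum of its array, the closest of any subunit to the top of the range. Ndufb11 differed by -0.01 and Ndufb2 by 0.02 on their brightest probe sets. Other probe sets of these genes had the opposite sign, up to 0.09 for Ndufb11 and down to -0.57 for a dim probe set of Ndufb2. The only probe set naming Ndufb4 alone stayed below the array median, with 0.822, 0.464 and 0.657 in KO 1 to 3, against 0.716, 0.801 and 0.716 in WT 1 to 3, and was not tested. This does not give the level of the gene, since 2 probe sets that name it together with related symbols had mean signals of 336 and 228.

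Ndufab1, the mitochondrial acyl carrier protein that also serves fatty acid and lipoate synthesis, differed by -0.07 on its brightest probe set, which averaged 346 ± 45.9 in KO and 363 ± 49.7 in WT (SD, n = 3 each). A dim probe set read 6.98, 4.29 and 5.79 in KO 1 to 3, against 12.7, 13.8 and 7.39 in WT 1 to 3, a log2 difference of -0.97 (limma adjusted p = 0.469). Another dim one gave -0.84 (limma adjusted p = 0.440), and both were lower in KO in 3 of 3 pairs with no overlap, while one more gave 0.09. In all, 9 of the 22 genes with several tested probe sets had probe sets of both signs. The rest were lower in KO on every tested probe set in 7 genes and higher in 6. Of the 85 tested probe sets, 5 had an unadjusted p under 0.05, against 8.55% of all tested probe sets. None of the 5 was the brightest of its gene. Among them was the second probe set of Ndufaf4, with a mean signal of 23.8 against 23.9 on the brightest.

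**Figure D2:**
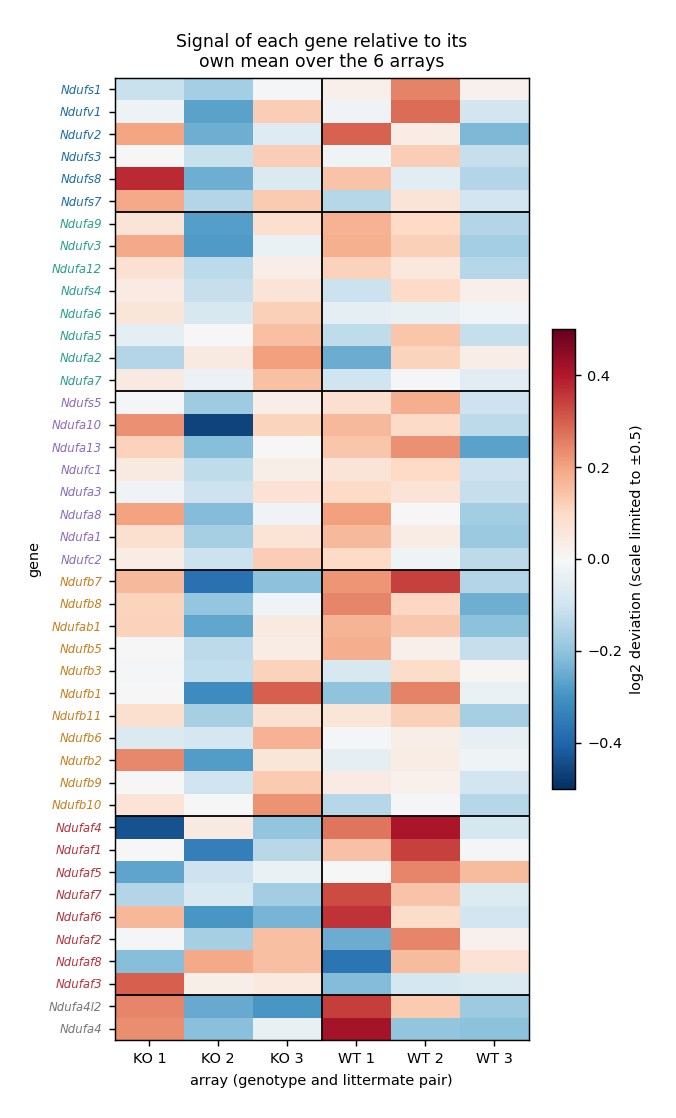
Signal of each tested gene (rows, in the 6 role groups) on each of the 6 arrays (columns, KO left of WT) as the log2 deviation from the mean of that gene, blue below and red above the mean. With the array median scaling shown here, KO 2 and WT 3 are blue for most subunits, and the assembly factor rows do not follow this pattern as closely.

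With scaling to the array median, subunits varied together from array to array more than between the genotypes. On the scaled signals, KO 2 was the lowest array for 21 of 33 subunits and WT 3 for 8. The median deviation from the mean of each gene was 0.06, -0.17 and 0.07 on the log2 scale in KO 1 to 3, against 0.06, 0.10 and -0.12 in WT 1 to 3. The pairs disagreed, with a median log2 difference over the subunits of -0.01 in pair 1, -0.22 in pair 2 and 0.20 in pair 3. Subunits lower in KO numbered 18 of 33 in pair 1, 32 in pair 2 and 2 in pair 3.

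Other abundant transcripts showed the same order of pairs. The 820 tested probe sets with a mean signal above 100 had medians of -0.02, -0.22 and 0.19 in pairs 1 to 3, and 39 subunits of complexes II to V had -0.07, -0.25 and 0.19. The pattern also depended on the scaling. After quantile normalization the subunit medians were 0.02, 0.02 and 0.01 in pairs 1 to 3, and on the signals as deposited they were 0.10, 0.06 and 0.004. The median deviation from the gene mean was 0.01 on KO 2 and 0.02 on WT 3 after quantile normalization. It was -0.02 and 0.05 on the signals as deposited. The median intensity was 20.1 on KO 2 and 20.4 on WT 3, above the 16.5 to 17.9 of the other arrays. KO 2 and WT 3 were also the arrays with the highest muscle marker sums of 838 and 351. A comparison without these arrays set KO 1 and KO 3 against WT 1 and WT 2, unpaired, and was chosen after seeing the data. In it the differences of the named genes kept their sign except for Ndufa10, Ndufs4 and Ndufaf2, which became 0.04, 0.06 and 0.07.

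**Figure D3:**
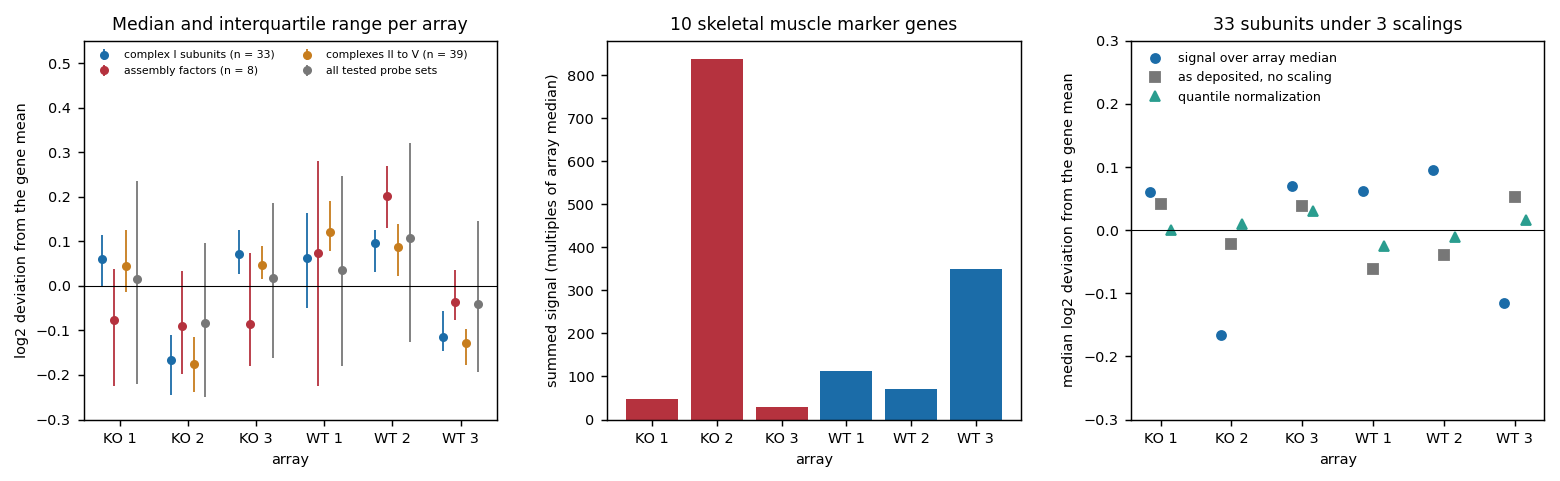
Left, median (dot) and interquartile range (line) of the log2 deviation from the gene mean on each array, for complex I subunits, assembly factors, complexes II to V and all tested probe sets. Middle, summed signal of 10 skeletal muscle markers, highest at 838 in KO 2 and 351 in WT 3. Right, the subunit median under 3 scalings, where the low values of KO 2 and WT 3 are seen with scaling to the array median and not with quantile normalization.

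Assembly factors were the group with the lowest median, and 5 of 8 were lower in KO in 3 of 3 pairs, as were 18.4% of all tested probe sets and 21.4% of the 5245 with a mean signal between 10 and 60. In the other direction, 2 of 8 (Ndufaf3 and Ndufaf8) were higher in KO in 3 of 3 pairs, against 12.4% and 11.3% of these probe sets. The higher count was 0 on the signals as deposited and 1 after quantile normalization, and the lower count was 4 under both. None of the 8 assembly factors passed the adjusted test. Their median deviation from the gene mean was 0.20 on WT 2, the array that stood apart in its control probes, and between -0.09 and 0.07 on the other arrays. Without pair 2 their median difference was -0.16, and 5 were lower in KO in both pairs left. Over all 43 genes, 8 were lower in KO in 3 of 3 pairs (18.6%) and 3 were higher (6.98%, against 12.4% of all tested probe sets). These counts were 5 lower and 9 higher on the signals as deposited, and 11 lower and 8 higher after quantile normalization. Without pair 3, 25 were lower in both pairs left, and without pair 2, 18 were higher. The shares of all tested probe sets were not computed for the 2-pair counts or for the other 2 scalings. Taken singly, 66.0% of all tested probe sets were lower in pair 2 and 56.5% were higher in pair 3. Of those with a mean signal above 100, these shares were 76.7% and 83.2%.

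Ndufaf4 and Ndufaf3, which in human cells bind each other and build the module around the ubiquinone site, stood at opposite ends. Ndufaf4 read 17.4, 24.2 and 20.5 in KO 1 to 3, against 28.2, 31.1 and 22.1 in WT 1 to 3. The groups overlapped slightly through KO 2 and WT 3, each KO mouse was below its littermate, and the log2 difference was -0.39 (95% confidence interval -0.89 to 0.11, limma adjusted p = 0.659), or -0.24 without pair 1. A second probe set of similar signal read 10.9, 21.4 and 22.9 in KO 1 to 3, against 23.1, 38.8 and 25.6 in WT 1 to 3. Its groups did not overlap, and its log2 difference was -0.70 (limma adjusted p = 0.515).

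Ndufaf3 read 44.8, 37.2 and 37.7 in KO 1 to 3, against 31.4, 34.3 and 34.7 in WT 1 to 3. All KO values were above all WT values, and the log2 difference was 0.25 (95% confidence interval -0.23 to 0.73, limma adjusted p = 0.772), or 0.12 without pair 1. On the signals as deposited it was not higher in all 3 pairs.

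The stretches just upstream of the transcription start of this pair are shown because their transcripts stood at the 2 ends of the group, 250 bases each from RefSeq on GRCm38.p6. The first lies at chr4:24897833-24898082 on the plus strand and the second at chr9:108567437-108567686 on the minus strand. Capitals mark the palindromic motif of NRF-1, a factor that activates many respiratory chain genes.
Ndufaf4: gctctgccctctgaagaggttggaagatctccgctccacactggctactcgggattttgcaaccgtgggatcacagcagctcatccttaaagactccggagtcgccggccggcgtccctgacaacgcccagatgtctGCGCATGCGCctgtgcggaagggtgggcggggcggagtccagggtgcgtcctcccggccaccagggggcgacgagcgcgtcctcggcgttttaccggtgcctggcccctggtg
Ndufaf3: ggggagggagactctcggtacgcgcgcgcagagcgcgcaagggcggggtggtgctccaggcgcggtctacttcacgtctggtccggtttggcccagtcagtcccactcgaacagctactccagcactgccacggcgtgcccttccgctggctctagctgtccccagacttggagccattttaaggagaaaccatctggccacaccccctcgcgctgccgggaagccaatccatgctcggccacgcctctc

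The NRF-1 motif, searched as the letters in capitals above, began 113 bases before the start of Ndufaf4. Windows of 300 bases around the start, 250 before and 50 after, were found for 39 of the 44 genes and searched on both strands. The NRF-1 motif was in 2 of the 39 genes, Ndufaf4 and Ndufaf5, or 5.13%, against 0.971% of all 32851 windows. The YY1 motif AAGATGGC was in 7 (17.9%, against 2.75%), namely Ndufa3, Ndufa9, Ndufaf8, Ndufb8, Ndufc1, Ndufs4 and Ndufs7. The ETS motif CCGGAAGT, recognised by GABP, was in 1, Ndufs3 (2.56%, against 3.89%). No gene held more than 1 of these motifs, and a match describes the sequence only.

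Ndufaf1, a factor of the early membrane arm, read 35.5, 28.1 and 32.4 in KO 1 to 3, against 39.5, 45.1 and 35.5 in WT 1 to 3. It differed by -0.32 on the log2 scale (95% confidence interval -0.83 to 0.18, limma adjusted p = 0.713), and by -0.14 without pair 2. Ndufaf5, which hydroxylates an arginine of NDUFS7 in human cells, read 12.2, 13.6 and 14.3 in KO 1 to 3, against 14.6, 17.3 and 16.3 in WT 1 to 3. Here the groups did not overlap and the difference was -0.27 (limma adjusted p = 0.734). Its partner Ndufaf8 read between 43.1 and 57.0 in KO and between 38.8 and 55.8 in WT on its brightest probe set. The difference was 0.09 there and -0.09 on the other, a dimmer one with a mean signal of 6.48.

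Ndufaf7, a protein arginine methyltransferase of mitochondria, read 12.9, 13.5 and 12.6 in KO 1 to 3, against 17.8, 15.7 and 13.6 in WT 1 to 3. All KO values lay below all WT values, with a log2 difference of -0.27 (limma adjusted p = 0.749), or -0.16 without pair 1. Ndufaf6, needed for early assembly, read 18.1, 13.2 and 13.8 in KO 1 to 3, against 20.8, 17.2 and 15.1 in WT 1 to 3, and each KO mouse was below its littermate with overlapping groups. Its log2 difference was -0.24 (limma adjusted p = 0.772). Ndufaf2, which acts late and is related to Ndufa12, differed by -0.01 with pairs in both directions. Ndufaf4, Ndufaf1, Ndufaf5 and Ndufaf6 were lower in KO in 3 of 3 pairs under each of the 3 scalings, and Ndufaf7 was so on the median-scaled signals but not under the other 2 scalings.

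**Figure D4:**
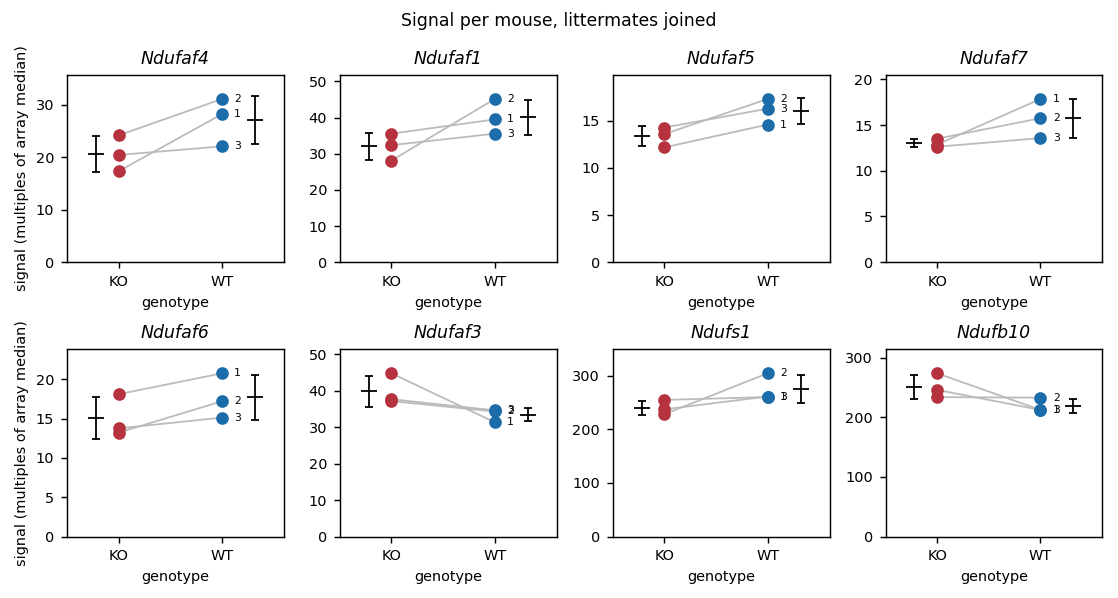
Signal (y axis, multiples of the array median, from 0) of 6 assembly factors and 2 subunits in each mouse, KO left of WT, with littermates joined and numbered by pair, and bars for the mean and SD (n = 3 each). Ndufaf4, Ndufaf1, Ndufaf5, Ndufaf7, Ndufaf6 and Ndufs1 are lower in KO in 3 of 3 pairs, and Ndufaf3 and Ndufb10 are higher.

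Both Nduf symbols outside the complex gave no difference past the threshold. Ndufa4, now counted as a subunit of complex IV, averaged 259 ± 40.6 in KO and 264 ± 69.0 in WT (SD, n = 3 each), with a log2 difference of -0.01. Ndufa4l2, its paralogue that hypoxia induces, read 4.11, 2.92 and 2.84 in KO 1 to 3, against 4.41, 3.81 and 3.07 in WT 1 to 3. Each KO mouse was below its littermate with overlapping groups, at -0.20 (95% confidence interval -0.66 to 0.26, limma adjusted p = 0.824), or -0.11 without pair 2.

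Complex I genes with other names were counted in the same way, and of 21 listed, 13 were tested. Their median log2 difference was -0.04, against -0.25 for the 8 assembly factors with an Nduf symbol, of which 5 were lower in 3 of 3 pairs. Of the 13, 0 were lower and 1 was higher in KO in 3 of 3 pairs, against 18.4% and 12.4% of all tested probe sets. The one was Dmac2, a factor of the distal membrane arm, which read between 6.22 and 13.3 in KO, against 5.47 to 7.86 in WT. Its log2 difference was 0.59 (limma adjusted p = 0.546), with overlapping groups. Its limma unadjusted p was 0.0329, and 8.55% of all tested probe sets had one under 0.05. Nubpl, which delivers iron-sulfur clusters, was lowest at -0.33, with pair 3 in the opposite direction. The core subunits encoded by mitochondrial DNA were not analysed here.

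Subunits of complexes II to V, 39 tested, had a median log2 difference of -0.05, and 0 passed the adjusted test. The medians were -0.05 for complex II, -0.06 for complex III, -0.04 for complex IV and -0.03 for complex V. None of the 39 differed in the same direction in 3 of 3 pairs. Of the 33 complex I subunits, 2 were lower and 1 was higher. Over all tested probe sets 18.4% were lower and 12.4% higher, and 14.3% and 20.0% of those with a mean signal above 100. These counts were made with the array median scaling. The subunit counts were 1 lower and 9 higher on the signals as deposited, and 6 and 7 after quantile normalization. Complexes II to V were not counted under these 2 scalings. The difference between these complexes was not tested.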

How the data were processed

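The intensity values were deposited by the authors as 1 linear number for every probe set and array, and the labels name GCOS as the tool behind them. Its version, its algorithm and its scaling target were not found in the labels or the methods. The methods describe a chip normalization, which these values did not yet contain, as the array medians ran from 16.5 to 20.4. After removal of 64 control probe sets, 45037 were left. Scaled signals were intensities over the array median, raised to 0.25 where lower, and taken to log2. A fold on this scale understates changes near that floor.

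A mean scaled signal above 1 was required, which kept 22356 probe sets for limma 3.58.1 (R 4.3.3). The model held genotype and littermate pair, the variances were moderated with eBayes, and p-values were adjusted by Benjamini-Hochberg over every probe set kept, at 0.05. Symbols came from the platform annotation (34945 probe sets with 1 symbol, 932 with several and 9160 with none). Ndufs6 and Ndufa11 had no probe set naming them alone, and 10 probe sets with an Nduf symbol beside another were not used. The design text of the series sets KO and WT mice of the same number as littermates, so the numbers pair the samples, and within pairs 1 to 3 the deviations of KO and WT from their group means had correlations of 0.446, 0.0847 and 0.160, against -0.359 to 0.281 for mice of different pairs.

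Members, gene lists and role groups were chosen with earlier results of these data known. Named were, in each role group, genes with an unadjusted p under 0.05, the 2 lowest and 2 highest differences, genes below the filter, and genes whose probe sets differed in sign. Ndufs4, Ndufaf5, Ndufaf6, Ndufaf7 and Ndufaf2 were added after values were seen. The fit was tested on simulated data. Alternatives were other scalings, floors, filters, an intensity trend, no pair block, other probe sets for a gene and each pair left out.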

Additional observations from a re-analysis of the deposited data

How the results depend on the processing

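No complex I gene passed the adjusted test under any alternative run, and the smallest adjusted p over the alternatives was 0.405, for Ndufaf4 with an intensity trend and a robust prior. Over the whole array, 0 probe sets passed with the array median scaling, 23 with a floor of 1 array median, 123 with a pseudocount of 1, 40 with a filter above 2, 311 with the trend, 3 with gene means and 255 without pair 1. Complex I genes with a limma unadjusted p under 0.05 numbered 0 of 43. They numbered 1 of 44 with no filter on low signals and 1 of 43 with the trend. Without littermate pair as a block, 0 genes passed and no call changed. The median difference of -0.02 could not change here, because each pair holds 1 KO and 1 WT mouse and the fitted differences are then the same. Genes lower in KO in 3 of 3 pairs numbered 8, and 5 on the signals as deposited. Genes higher in KO in 3 of 3 pairs numbered 3, and 9 on the signals as deposited, 8 after quantile normalization, 5 with gene means and 5 with plain probe sets only (34 genes tested). When each pair was left out in turn, between 8 and 25 genes were lower and between 3 and 18 were higher in both pairs left, with 25 without pair 3 and 18 without pair 2, and the median difference lay between -0.134 and 0.0904. The shares of all tested probe sets were not computed for these alternatives. Assembly factors lower in all pairs numbered 5 with each pair left out and 3 with plain probe sets, which left 6 of the 8 to test, with a median between -0.30 and -0.16 when each pair was left out.

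Genes with a difference near 0 changed sign. On the signals as deposited the log2 difference of Ndufa1 became 0.0501, Ndufa12 0.046, Ndufa3 0.0277, Ndufa4 0.0529, Ndufaf2 0.048, Ndufb11 0.0531 and Ndufs4 0.0523. After quantile normalization the log2 difference of Ndufa1 became 0.0396, Ndufa12 0.0186, Ndufaf2 0.0655, Ndufb11 0.0431 and Ndufs4 0.0428. With gene means the log2 difference of Ndufa12 became 0.217, Ndufa3 0.0405, Ndufaf8 -0.000964, Ndufb11 0.0313, Ndufb2 -0.169 and Ndufb8 0.0658. With plain probe sets only the log2 difference of Ndufa12 became 0.793, Ndufaf8 -0.0888, Ndufb11 0.0882, Ndufb2 -0.57 and Ndufb8 0.20. Without KO 2 and WT 3 (no pair block, chosen after seeing the data) the log2 difference of Ndufa10 became 0.0405, Ndufaf2 0.0746 and Ndufs4 0.0568. With each pair left out in turn the ranges of the named genes that crossed 0 were -0.144 to 0.0855 for Ndufa1, -0.245 to 0.155 for Ndufa10, -0.111 to 0.0686 for Ndufa12, -0.144 to 0.0335 for Ndufa3, -0.0971 to 0.0777 for Ndufa4, -0.245 to 0.0589 for Ndufa9, -0.223 to 0.0982 for Ndufab1, -0.142 to 0.186 for Ndufaf2, -0.134 to 0.131 for Ndufb11, -0.118 to 0.184 for Ndufb2, -0.214 to 0.0462 for Ndufb8, -0.0798 to 0.0935 for Ndufb9, -0.0749 to 0.0957 for Ndufc2, -0.088 to 0.093 for Ndufs4, -0.226 to 0.024 for Ndufs5, -0.058 to 0.154 for Ndufs8, -0.275 to 0.103 for Ndufv1, -0.189 to 0.031 for Ndufv2 and -0.193 to 0.0765 for Ndufv3. The cause was not tested. The number of mice limits the precision.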
